A study of Mus musculus with 4 samples.

Results

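The carboxylesterases are serine hydrolases that split esters, amides and thioesters of drugs and lipids, and the liver is among their main sites of expression. The 10 genes described here, Ces1b, Ces1c, Ces1d, Ces1e, Ces1f, Ces1g, Ces2a, Ces2e, Ces3a and Ces3b, are paralogs of mouse carboxylesterase families 1, 2 and 3, taken by gene symbol. All 10 were among the 12883 genes of the input table, and 8 of them had 11 of the 7569 transcript features of the immunoprecipitate table. The family was selected on the input fold changes and adjusted p-values of an earlier look at these data, in which Ces1b was among the called genes, so the input values below describe that choice and do not test it.

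The groups were Fto knockout liver and wild-type liver on a C57/Bl6 background, each as RNA pulled down with an antibody to methylated adenosine (6mA-IP) and as input, with 3 replicates stated for each of the 4 groups. The tissue was labelled as liver biopsy and the RNA as total RNA. The sources used here do not give age, sex or the kind of knockout allele. The Fto protein removes methyl groups from adenosines of RNA, and miCLIP crosslinks the antibody to RNA before the bound fragments are cloned.

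Most carboxylesterases sit in the lumen of the endoplasmic reticulum, held there by a short tail that binds the KDEL receptors, whereas Ces1c of the mouse is secreted into plasma. Ces1d is a triacylglycerol hydrolase that takes part in the supply of lipid for very-low-density lipoprotein (VLDL), Ces1f is a close relative of it, and Ces1e, also called egasyn, holds beta-glucuronidase in the endoplasmic reticulum. Several family members are inducible through the xenobiotic receptors CAR and PXR.

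The 2 start-site regions below are shown because Ces1b and Ces1c are neighbours with different input values and similar sequence upstream of 1 annotated start of each. Each is the 250 bases before an annotated first transcribed base, from RefSeq on GRCm38.p6, written 5′ to 3′ on the minus strand. Ces1b has 2 annotated starts. Its region shown is the one before start 1, and start 2 lies inside that region. Ces1b lies at chr8:93079941-93080190 and Ces1c at chr8:93131284-93131533. Capitals mark runs of at least 8 bases that are identical in the alignment of both.
Ces1b: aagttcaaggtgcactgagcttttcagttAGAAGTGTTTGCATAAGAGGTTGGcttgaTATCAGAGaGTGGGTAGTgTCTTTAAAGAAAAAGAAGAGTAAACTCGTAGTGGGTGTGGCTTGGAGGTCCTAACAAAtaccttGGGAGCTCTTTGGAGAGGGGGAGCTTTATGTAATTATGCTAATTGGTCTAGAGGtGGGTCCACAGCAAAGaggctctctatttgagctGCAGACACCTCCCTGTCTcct
Ces1c: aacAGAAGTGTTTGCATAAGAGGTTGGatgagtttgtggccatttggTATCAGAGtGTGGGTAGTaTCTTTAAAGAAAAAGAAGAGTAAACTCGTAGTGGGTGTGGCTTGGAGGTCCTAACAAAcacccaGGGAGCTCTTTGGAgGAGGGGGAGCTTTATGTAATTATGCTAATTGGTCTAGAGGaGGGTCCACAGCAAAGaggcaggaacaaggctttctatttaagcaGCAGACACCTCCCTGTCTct
The alignment held 211 identical bases in 277 columns, an identity of 76.2%, which was the highest of any pair of different carboxylesterase genes with a start-site region in the table. The runs in capitals covered 186 bases of each sequence. The next pair was Ces2a and Ces2c with 64.6%. These values hold for start 1 of Ces1b. The region before its start 2 had 39.7% identity with that of Ces1c, with 140 identical bases in 353 columns. The 2 regions of Ces1b overlap but are shifted against each other, and gaps count as columns. The lower value therefore does not show that the sequence before start 2 is unlike that of Ces1c.

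Motifs were searched on both strands in the 250 upstream bases, as a description. TTGCNNAA, a form of the site bound by C/EBP factors, was found in both sequences as ttgcataa within the first long shared run, and also in Ces2a and Ces2e. It was present in 5 of 8 start-site regions of the members, which belong to 7 genes since Ces1b has 2 annotated starts. The same site of Ces1b is counted in both of its regions. Over all carboxylesterase genes the motif was present in 6 of 16 regions, and in 9.56% of 32851 regions in the RefSeq table. The hexamer AGTTCA, a form of the unit bound by nuclear receptors, was found in both regions of Ces1b, which overlap. It was in no other member region searched. Outside the members it was found in Ces1a, next to Ces1b, and in Ces5a. Before start 1 of Ces1b it lies at −249 to −244, the far end of the bases searched. The Ces1c region begins nearer the first shared run, so the matching stretch of Ces1c was not searched. Ces1d, Ces1f and Ces3a had no region to search. This hexamer was present in 4 of 16 regions of all carboxylesterase genes and in 11.8% of all regions. TATAAA was found in 2 of 8 member regions, in Ces3b on the strand of the gene and in Ces1g on the opposite strand. It was present in 3 of 16 regions of all carboxylesterase genes and in 12.4% of all regions.

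The antibody used also binds N6,2'-O-dimethyladenosine, which occurs where the first transcribed base is A, so the annotated first base of each member is shown in capitals between 10 bases before and 5 bases after it. Of the 8 member starts 5 had A, against 34.4% of all starts in the table.
Ces1b start 1: cctgtctcctAgagtt
Ces1b start 2: gctttatgtaAttatg
Ces1c: ccctgtctctAagagc
Ces1e: aacctgggtaAactct
Ces1g: aggatcagtgCattat
Ces2a: ggaccaggccGatctg
Ces2e: acatcttttaTttcct
Ces3b: agctttccacAgcttc
These windows are, in the same order, at chr8:93079935-93079950, chr8:93080012-93080027, chr8:93131278-93131293, chr8:93229614-93229629 and chr8:93337204-93337219 on the minus strand, and at chr8:104733993-104734008, chr8:104926250-104926265 and chr8:105083745-105083760 on the plus strand. The starts are annotated ones, and which start was used in these livers was not measured.

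Input RNA shows which transcript levels differed between knockout and wild-type liver before any antibody was applied. A single member, Ces1b, was called higher in knockout liver. The 9 other members spread around 0, with family 1 genes on both sides of it and the family 2 and 3 genes all below it. The values used below are the authors' mean over all libraries, log2 fold change with its standard error (SE), p-value and adjusted p-value. Levels in single livers, or in each group, were not analysed here. Fold changes are knockout over wild type, a direction read from Fto, which was lower in the authors' deposited table (log2 fold change −1.49, SE 0.27, mean 55.8). They have the small sizes of shrunken estimates, with no SE above 0.302 in the table.

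Ces1b, of family 1, had a mean of 137.0 normalized counts and a log2 fold change of 1.08 (SE 0.24) in the authors' deposited table, which is 2.11-fold on the linear scale with a normal 95% interval from 1.52 to 2.94. Its adjusted p there was 0.0313, and 0.0284 when adjusted over the table's own p-values. It was 1 of 10 members called at an adjusted p under 0.05, where 0.0389% of all genes with an adjusted p were called, and 0.0233% called higher. Ces1b ranked 6 of 12883 by fold change. The rule that chose the members used this contrast, so nothing further is read from that count.

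The other family 1 members lay close to 0. Ces1c, the secreted plasma esterase and direct neighbour of Ces1b, had a mean of 1685 and a log2 fold change of −0.02 (SE 0.23) in the authors' deposited table. The printed estimates of Ces1b and Ces1c differ by 1.10 on the log2 scale, across the similar upstream regions shown above. Ces1d, the triacylglycerol hydrolase, stood at 0.08 (SE 0.26) with a mean of 597 in the authors' deposited table. Its relative Ces1f was at 0.01 (SE 0.24) with a mean of 572 in the authors' deposited table, a sign that turns when the median gene is set to 0. Ces1e, the egasyn gene, was at −0.07 (SE 0.28) with a mean of 212, and Ces1g, which acts on liver lipid, at 0.21 (SE 0.29) with a mean of 194, in the authors' deposited table. Ces1g was the next highest member after Ces1b, 0.87 below it on the log2 scale. The interval of Ces1c runs from 0.716-fold to 1.35-fold, and the estimate of Ces1b lies above it and above the intervals of the other 4. With no SE above 0.302 in the table, such intervals are narrow for any gene near 0, so this does not set Ces1b apart. The interval of Ces1b, from 1.52-fold, overlaps that of Ces1g, which reaches 1.71-fold. The family was selected with Ces1b among the called genes, so a gap between its interval and that of another member is no test. Differences between members were not tested.

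Family 2 and 3 members all had estimates below 0, none of them past the adjusted threshold. In the authors' deposited table Ces3b, a liver esterase gene of family 3, was the lowest, with a mean of 359 and −0.53 on the log2 scale (SE 0.26, adjusted p = 0.9998), or 0.695-fold with an interval from 0.489 to 0.987. Its unadjusted p of 0.0422 put it, with Ces1b, among 2 of 10 members under 0.05, where 2.21% of all genes were. Ces3a, its neighbour, stood at −0.20 (SE 0.26) with a mean of 1553 in the authors' deposited table. Ces2e stood at −0.31 (SE 0.29) with a mean of 179, and Ces2a at −0.13 (SE 0.25) with a mean of 118, in the authors' deposited table. Both belong to the family whose human counterpart hydrolyses many ester prodrugs.

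Of the 10 members 4 had a log2 fold change above 0 in the authors' deposited table, where 53.5% of all genes did, and 7 lay within 1 SE of 0. The median was −0.05, against 0.02 over all genes, and −0.07 without Ces1b. Among the other carboxylesterase genes measured, Ces1a stood at 0.11 with a mean of 3.12, Ces2c at −0.11 with a mean of 15.1 and Ces2g at 0.31 (SE 0.28) with a mean of 47.3, in the authors' deposited table. None of these 3 was called, and Ces2g lay on the other side of 0 from its family 2 relatives. Reads from near-identical stretches of paralogs could be given to one gene or another by the authors' counting, whose rules the sources used here do not give, so each single value carries that uncertainty.

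**Figure D1:**
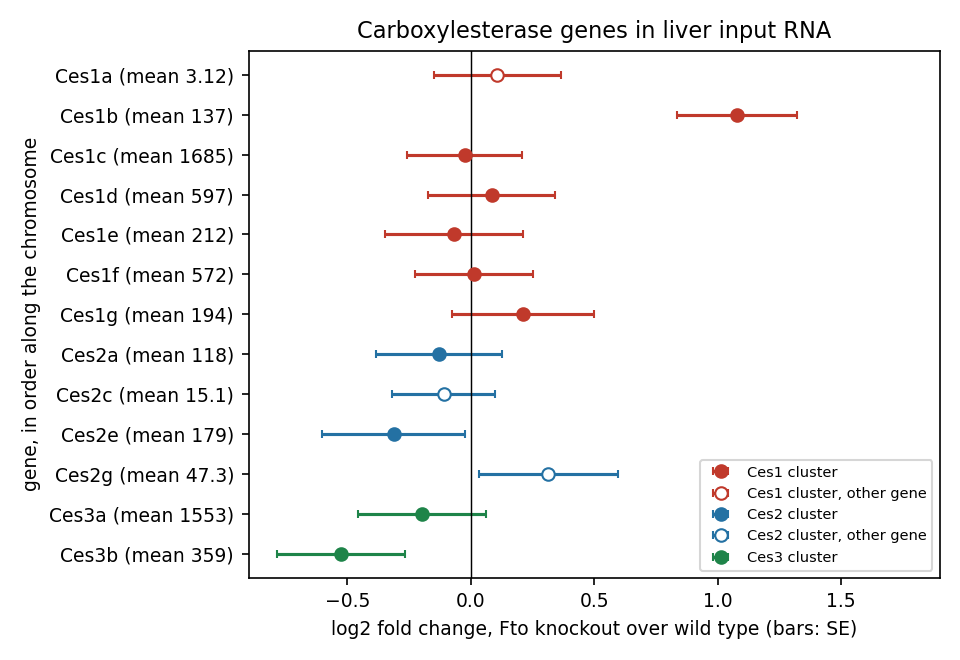
Log2 fold change of input RNA, Fto knockout over wild type, for the 13 measured carboxylesterase genes in their order along the chromosome, with the authors' SE as bars and the authors' mean beside each name. Open points are genes outside the 10 members. Ces1b stands at 1.08, and the other points lie between −0.53 and 0.31.

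In the immunoprecipitate the comparison asks which transcripts the antibody recovered more or less in knockout than in wild-type liver. No carboxylesterase feature was called in either direction. The abundant members, Ces1c, Ces3a and Ces3b, lay 0.02 to 0.70 above the median feature, and departures of more than 1 from it were seen at means under 16. The header gives no direction. It is read here as knockout over wild type from a weak positive correlation with the input (Spearman 0.175 across 715 genes, which share libraries within each table). Read the other way, every sign turns. The median of all features was −1.59, so values are also given relative to it.

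In the authors' deposited table Ces1c had a mean of 270.4 and stood at −0.89 (SE 0.53, adjusted p = 0.516), which lies 0.70 above the median feature. Both Ces3a features carried the same values, with a mean of 178 and −1.31 as log2 fold change (SE 0.86, adjusted p = 0.367), or 0.28 above the median, in the authors' deposited table. The Ces3b features had means of 67.8 and 66.2 with log2 fold changes of −1.57 (SE 1.38) and −1.53 (SE 1.34), or 0.02 and 0.07 above the median, in the authors' deposited table. Estimates of all 3 genes thus lie below 0 as printed and above 0 once the median feature is set to 0. Both Ces2e features stood at −2.51 (SE 2.13) with a mean of 20.3, which is −0.92 from the median, in the authors' deposited table.

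The family 1 genes other than Ces1c spread widely at low means. Ces1f stood at 5.30 (SE 1.997, adjusted p = 0.415) with a mean of 15.8, the highest of the members, in the authors' deposited table. Ces1e was at 2.83 (SE 2.82) with a mean of 4.24, and Ces1d at 0.18 (SE 2.20) with a mean of 7.78, in the authors' deposited table. Ces1g was the lowest member at −7.06 (SE 2.55) with a mean of 6.62 and no adjusted p in the authors' deposited table. Its unadjusted p of 0.0274 made it 1 of 11 member features under 0.05, where 10.4% of all features were. If both groups held equal numbers of libraries, a mean and fold of this size would put Ces1g at 0.0982 normalized reads in knockout and 13.1 in wild type, and Ces1f at 30.8 in knockout and 0.779 in wild type, so such folds rest on levels below 1 read in one group and are not measurable sizes.

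By the authors' adjusted p, 0 of the 9 member features that have one were called, where 4.69% of all features with one were, by DESeq2 as named in the submitters' processing notes. With a Wald p made from fold over SE in its place, 0 of 11 were called, where 10.8% of all features were. Of the 11 features 8 had a log2 fold change below 0 in the authors' deposited table, where 70.5% of all features did. The median was −1.31, and −1.10 with 1 feature per gene. Features of the same gene carry the same values (Ces2e, Ces3a) or nearly the same (Ces3b) and are not separate measurements. The p-value in this table comes from another statistic than fold over SE, and fold and p are not read as one test.

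Of the 5 other carboxylesterase features in the immunoprecipitate, all at means under 9, those of Ces2c, Ces2f and Ces2g lay far below the median feature and those of Ces5a above it. Ces2c stood at −9.41 (SE 2.28, adjusted p = 0.109) with a mean of 8.58, Ces2g at −9.37 (SE 2.84, adjusted p = 0.205) with a mean of 8.02, and Ces2f at −9.06 (SE 3.53) with a mean of 7.30, in the authors' deposited table. For Ces2c the same arithmetic gives 0.0252 normalized reads in knockout and 17.1 in wild type. By fold over SE, Ces2c and Ces2g would be called (adjusted p = 0.00128 and 0.0153), and by the authors' p they were not. Both Ces5a features, of a gene first known as the urinary esterase cauxin in cats, stood at −0.82, and 842 features of the table lie within 0.001 of the commonest such value, in the authors' deposited table.

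**Figure D2:**
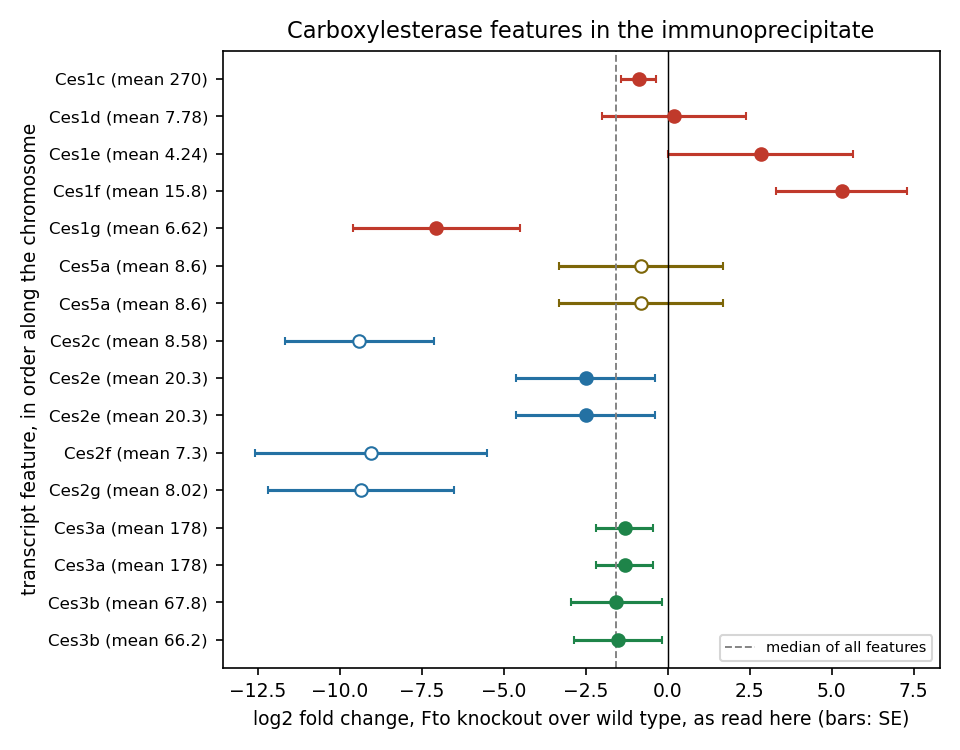
Log2 fold change of each carboxylesterase feature in the immunoprecipitate, Fto knockout over wild type as read here, with the authors' SE as bars and the authors' mean beside each name. Open points are features of genes outside the 10 members, and the dashed line is the median of all features at −1.59. The features with means above 60 lie between −1.57 and −0.89.

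The level in the immunoprecipitate relative to the input differed among the members. This ratio uses the means over all libraries and not the contrast by which the members were chosen. It sets a transcript feature against a gene, by counting rules not given here, so effects of transcript length need not cancel. Tables were normalized separately, so the ratio is given relative to the median of 3301 protein-coding genes with a feature in both tables and an input mean of at least 10. Ces3b lay 1.31 above that median on the log2 scale, Ces1c 1.08 above, Ces3a 0.59 above and Ces2e 0.58 above. Ces1g lay at −1.16 from it, Ces1f at −1.46, Ces1e at −1.93 and Ces1d at −2.54. Ces3b was thus at percentile 77.4 of these 3301 genes and Ces1d at percentile 8.21, a span of 3.86 on the log2 scale within the family. Genes without a feature are missing from this reference, and it was not matched for input level. The percentiles and distances from the median are therefore not read as relative recovery by the antibody.

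Within family 1, Ces1c lay above the median and Ces1d, Ces1e, Ces1f and Ces1g below it. Ces1d and Ces1f had similar input means of 597 and 572 and immunoprecipitate means of 7.78 and 15.8, whereas Ces3b had 67.8 at an input mean of 359. Ces2c, outside the members, had a ratio 2.90 above the median. Its immunoprecipitate mean of 8.58 was near the 7.78 of Ces1d, at an input mean of 15.1 against 597. The distance between the ratios of Ces2c and Ces1d thus lies mostly in their input means. The ratios average over both groups. For Ces1f, Ces1g and Ces2c, whose fitted levels differ widely between knockout and wild type as given above, neither the ratio nor its place in the order describes each group, and ratios within a group were not analysed here. Ces1b and Ces2a had no immunoprecipitate feature among those analysed here. At the median ratio, taken only over genes with a feature, their means would have been 10.4 and 8.99. Of 1129 protein-coding genes with input means from 100 to 200, 46.8% had a feature. A methylation change of Ces1b could therefore not be examined. The ratio carries no replicate error, because only means over all libraries were used, and at means near 4 to 8 it rests on few reads.

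**Figure D3:**
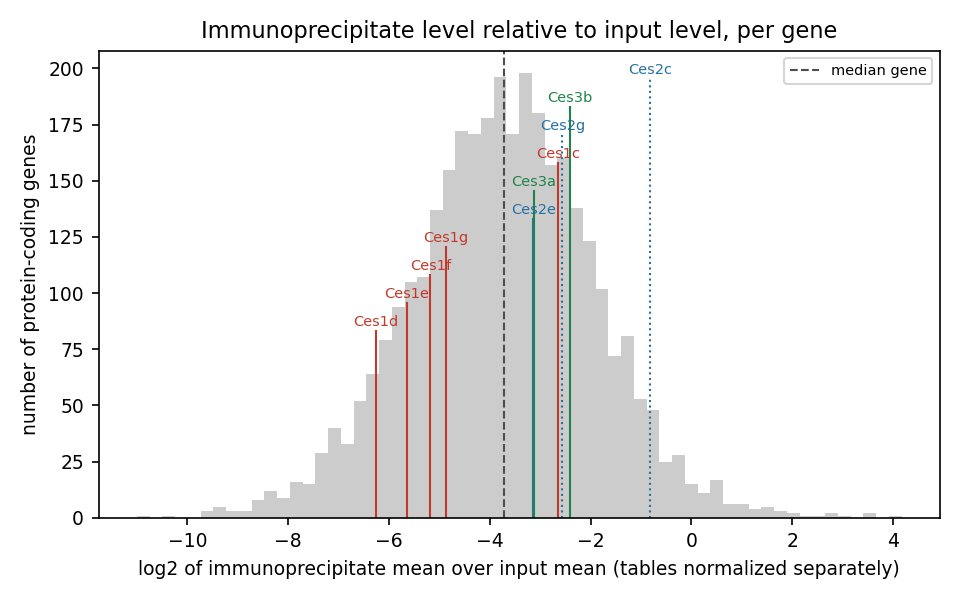
Number of protein-coding genes by the log2 ratio of immunoprecipitate mean to input mean, with the carboxylesterase genes marked by vertical lines whose heights only separate the names (dotted for genes outside the members) and the median gene by the dashed line. Ces1d, Ces1e, Ces1f and Ces1g lie left of the median, and Ces1c, Ces2e, Ces3a and Ces3b right of it.

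All carboxylesterase genes lie on chromosome 8, which also carries Fto (chr8:91313367-91668433 on GRCm38.p6). The family 1 genes from Ces1a to Ces1h and Ces5a span chr8:93020214-93535879, beginning 1.35 Mb beyond the end of Fto. Ces1b (chr8:93056725-93080017) lies 1.39 Mb from Fto. The family 2 and 3 genes begin 13.1 Mb away with Ces2a (chr8:104734003-104741634) and include Ces3b (chr8:105083733-105093929).

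Within 5 Mb of Fto, 62 other genes were measured in the input, with a median log2 fold change of −0.03 in the authors' deposited table and 28 of them above 0. Ces1b was the only one called. An unadjusted p under 0.05 was reached by 6 of the 62, or 9.68%, and by 5 of 55, or 9.09%, without the carboxylesterases, against 2.41% of 664 genes of the chromosome and 2.21% of all genes. Besides Ces1b these were Ciapin1, which serves iron-sulfur cluster assembly, at 0.89 (SE 0.27), Ogfod1, a prolyl hydroxylase gene, at 0.62, Cpne2 at −0.64, the ciliary gene Rpgrip1l, which abuts Fto, at −0.61 and the receptor gene Adgrg1 at −0.61, in the authors' deposited table. They lie on both sides of 0.

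The family 1 cluster is flanked by Lpcat2 at −0.51 (SE 0.28, mean 5.44) and Gnao1 at 0.01 (SE 0.23, mean 2.32) among measured genes, and the family 2 and 3 cluster by Ciao2b at 0.11 (SE 0.29) and Cbfb at −0.22 (SE 0.28), in the authors' deposited table. Ces1c to Ces1g, just beyond Ces1b, lie between −0.07 and 0.21. Whether the position of Ces1b near Fto has a part in its level was not tested.

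**Figure D4:**
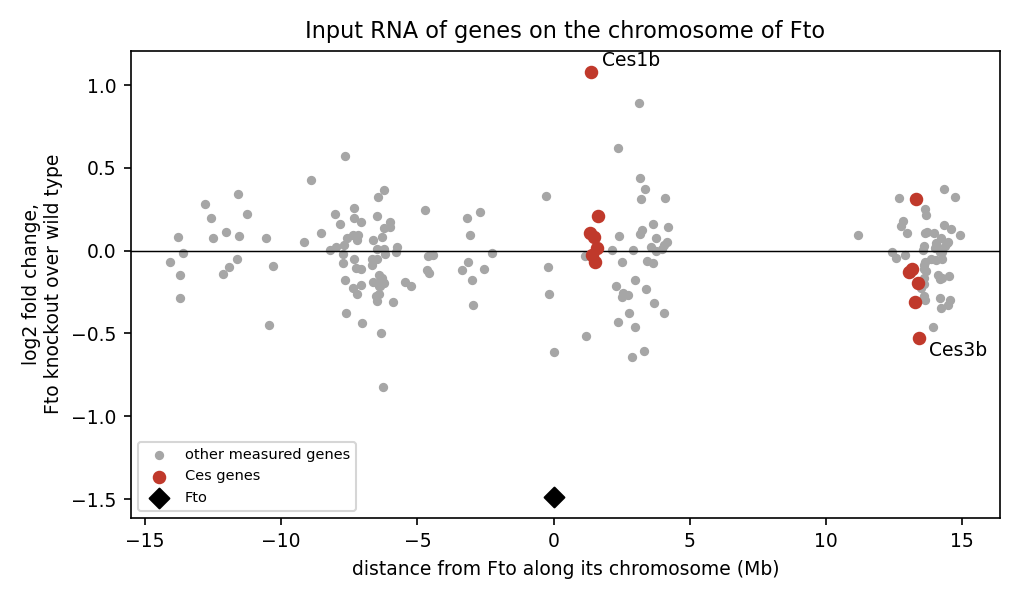
Log2 fold change of input RNA, Fto knockout over wild type, against distance from Fto along its chromosome within 15 Mb, for carboxylesterase genes (red), Fto (black diamond) and other measured genes (grey). Ces1b at 1.39 Mb is the highest point, and its cluster neighbours lie near 0.

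Other genes that act with the carboxylesterases were described from lists, with no gene called in any of them in the input, by DESeq2 as named in the submitters' processing notes. Among 23 of 24 other ester hydrolases and lipases, 10 were above 0, with a median of −0.04 and 0 at an unadjusted p under 0.05. Pon1, the plasma paraoxonase, was at 0.34 (SE 0.24) and Pnpla2, the adipose triglyceride lipase, at −0.34 (SE 0.25), in the authors' deposited table. Among 13 genes of VLDL assembly and lipid droplets the median was −0.02, with 0 at an unadjusted p under 0.05 and Plin2, which coats lipid droplets, at −0.48 (SE 0.25) in the authors' deposited table. Among 10 genes of the endoplasmic reticulum lumen and the KDEL receptors the median was 0.02, again with 0 at an unadjusted p under 0.05, and Hspa5, which encodes a chaperone, was at 0.33 (SE 0.23) in the authors' deposited table.

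Targets of CAR and PXR lay mostly above 0, with 15 of 19 measured genes above it and a median of 0.34, against 0.02 over all genes, in the authors' deposited table. Over all genes 53.5% were above 0. An unadjusted p under 0.05 was reached by 6 targets, all above 0, or 33.3% of those with a p, against 2.21% of all genes. Cyp2c54 and Cyp2c37, drug-oxidising cytochromes, both stood at 0.92 (adjusted p = 0.332 and 0.577), and Alas1, which encodes a heme synthesis enzyme, at 0.90 (adjusted p = 0.577), by the authors' deposited table. Cyp2c50 was at 0.61 (SE 0.24) there. The estimate of Ces1b is above that of each of these targets, which follows in part from the selection on input values. The 9 other members, at most at 0.21, all lay below the median of the targets.

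The 16 transcription regulators had 4 above 0, where 53.5% of all genes were, and a median of −0.10 in the authors' deposited table. Among these regulators 3, or 18.8%, had an unadjusted p under 0.05, where 2.21% of all genes did. Of the 3 with an unadjusted p under 0.05, Ahr, the aryl hydrocarbon receptor gene, was at 0.78 (SE 0.23, adjusted p = 0.553), Cebpa, which encodes a C/EBP factor, at −0.52 (SE 0.21) and Ppara, which encodes a lipid receptor, at −0.51 (SE 0.24), in the authors' deposited table.

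Hepatocyte markers, which check the tissue label, were present with means from 294 to 84262 for 7 of 8 genes. Their median was −0.16 in the authors' deposited table. Macrophage markers had a median of 0.29 in the authors' deposited table. Of these 12 genes 7, or 58.3%, were above 0, where 53.5% of all genes were, and 5 were below 0, down to −0.20. The MHC class II gene H2-Ab1 was highest at 0.96 (SE 0.29) and the only 1 with an unadjusted p under 0.05. Medians were 0.12 for endothelial markers (6 genes), −0.0043 for stellate markers (6 genes) and 0.0020 for cholangiocyte markers (5 genes), in the authors' deposited table. Pericentral hepatocyte genes were above 0 in 8 of 8 cases, with a median of 0.43 and Glul, which encodes glutamine synthetase, at 0.50 (SE 0.21), in the authors' deposited table. Of these 8, 4 had an unadjusted p under 0.05, where 2.21% of all genes did and 53.5% were above 0. In the authors' deposited table the 9 periportal genes had 4 above 0 and a median of −0.03. Only Cyp2f2 among them had an unadjusted p under 0.05, at −0.75 (SE 0.24, adjusted p = 0.866). In bulk tissue fewer cells of a type and less RNA per cell cannot be told apart, and the part of these lists in the value of Ces1b was not tested.

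**Figure D5:**
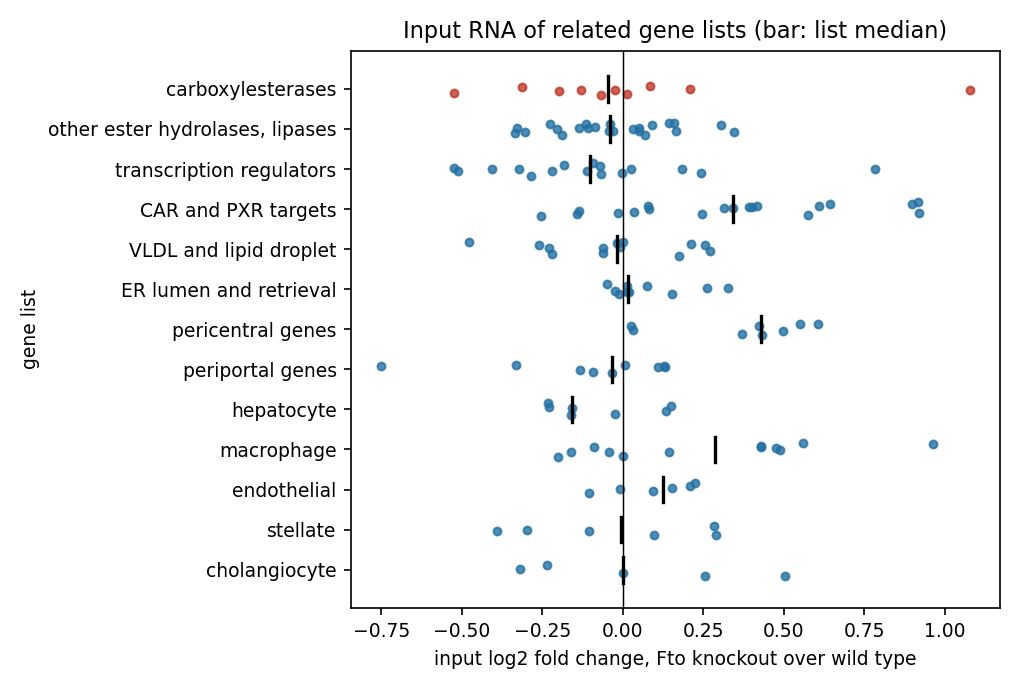
Log2 fold change of input RNA, Fto knockout over wild type, for each measured gene of the lists, with the list median as a black bar and vertical scatter for display. The carboxylesterases (red) have a median of −0.05 with Ces1b at 1.08, and the CAR and PXR targets and pericentral genes have medians of 0.34 and 0.43.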

How the data were processed

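The submitters' processing notes list STAR, bedtools 2.25.0, DESeq2 and the build mm10 without saying what each was used for. The files are the authors' comparison tables. Per the file headers each feature has a deposited mean signal (normalized counts averaged over libraries), a log2 fold change with its standard error in log2 units, a test statistic (score), a p-value and an adjusted p-value. In the input the statistic equalled fold over standard error. In the immunoprecipitate the p-value was that of a chi-square statistic with 1 degree of freedom, which differed from the square of fold over standard error (Spearman 0.827 across features). The sources used here give no model, counting rules or library sizes, which leaves the depth of each library unknown. Whether each replicate was its own animal is not stated there, so the p-values cover only a spread between samples that may be technical.

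The tables use older gene names, and none of the members' current symbols appears in the input table. Input genes were named by identifier (12869 of 12883 matched), immunoprecipitate features through the input's pairs of name and identifier, then current symbols, then RefSeq synonyms. Positions and start sites are from RefSeq (GRCm38.p6). Start-site regions of 7 members were in that table. Upstream regions were aligned globally with Biopython 1.88, and other steps used pandas 2.3.3 and SciPy 1.17.1 in Python 3.11.15. Adjustment and motif search were tested on simulated data. Called means an authors' adjusted p under 0.05. The members and lists were chosen with earlier results of these data known. Named genes were all carboxylesterases, Fto, up to 4 genes of each list and 6 near Fto with the lowest p in the input, from which those described were taken, and the genes flanking each cluster. Because each table holds 1 contrast, no likeness of pattern across samples could be computed.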

Additional observations from a re-analysis of the deposited data

How the results depend on the processing

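The call of Ces1b as 1 of 10 members held with the adjustment recomputed over the table, at an adjusted p under 0.1 and at minimum means of 10 and 50, and the 0 immunoprecipitate calls held under these, with 1 feature per gene and with the Wald p. Input members above 0 numbered 4, and 3 with the median gene set to 0, where Ces1f alone changed side. The number of immunoprecipitate features below 0 was 8, and it was 3 with the median feature set to 0 and 5 with 1 feature per gene. The median of these features was −1.31 as deposited and 0.28 after centring, with Ces1c, Ces3a and Ces3b changing side. Genes near Fto had 1 call, Ces1b, at 2, 5 and 10 Mb, and medians of −0.02, −0.03 and −0.03. The 13 list medians moved by less than a standard error at a minimum mean of 10. The alternative without Ces1b was added after the data were seen. Leaving out a replicate was not run, since only the comparison tables were used here. No paired analysis was possible because the labels number no replicates within the groups.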
